A study of Homo sapiens with 42 samples.

Results

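The 8 keratin genes KRT7, KRT8, KRT10, KRT17, KRT18, KRT19, KRT81 and KRT86 were described across 2 human acute myeloid leukaemia lines treated with a menin inhibitor and a MEK inhibitor. The members were taken by gene symbol from a table of 58869 genes, and they were chosen by their measured counts, because several of them differ strongly between treated and untreated cells of 1 line. For that reason their values under treatment are given as a description, with counts and spread but no p-value. Counts of members past the adjusted p threshold of the fit stand beside the share of all genes past it, also as a description, and nothing about the members rests on them. The difference between the untreated lines was tested, but it uses the same DMSO libraries, so its p-values are not independent of the choice. NOMO1 carries a KMT2A rearrangement, and OCI-AML3 carries the NPM1c mutation. Each line had 7 groups of 3 libraries, 42 libraries in all. They were given 100 nM of VTP-50469, which blocks menin, for 3 or 6 days, 100 nM of selumetinib, which blocks MEK, a combination of both for 3 or 6 days, or the solvent DMSO for 3 or 6 days. Menin tethers KMT2A to its target genes, and MEK activates the kinase ERK. The time of the selumetinib group is uncertain, because 1 label gives 1 day while the titles of replicates 2 and 3 give day 3, so it is set against DMSO day 3, and no DMSO group of 1 day was analysed here. Each line is a single established line, and every treated group of a line is compared with the same DMSO libraries of that day.

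Keratins are the intermediate filament proteins of epithelial cells. A filament needs an acidic type I keratin and a basic type II keratin, which pair before they polymerise, and a keratin left without a partner is generally degraded. KRT8 (type II) and KRT18 (type I) are the pair of simple epithelia and of the early embryo, KRT7 (type II) and KRT19 (type I) accompany them in ducts and glands, KRT17 (type I) marks activated and appendage keratinocytes, KRT10 (type I) belongs to the differentiated layers of the epidermis, and KRT81 and KRT86 are type II keratins of hair. Blood cells are not built on keratin filaments. Their main cytoplasmic intermediate filament protein is vimentin.

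Of the members, 5 lie in the type II cluster on chromosome 12 or at its end. In GENCODE 29 on GRCh38, KRT7 lies at chr12:52232520-52252186 on the plus strand, KRT86 at chr12:52249300-52309163 on the plus strand, KRT81 at chr12:52285913-52291534 on the minus strand, KRT8 at chr12:52897187-52949954 on the minus strand, and KRT18, the type I gene outside its own cluster, at chr12:52948871-52952901 on the plus strand. The remaining type I genes lie on the minus strand of chromosome 17, KRT10 at chr17:40818117-40822595, KRT19 at chr17:41523617-41528308 and KRT17 at chr17:41619441-41624842. The counts were made per annotated gene from libraries without strand information, so overlaps matter. KRT81 lies wholly inside the span of KRT86, over 5622 bases, on the opposite strand, but shares 0 exon bases with other genes. KRT8 and KRT18 lie head to head, overlap over 1084 bases and share 525 exon bases on opposite strands, which are 7.63% of the exon bases of KRT8 and 16.3% of those of KRT18. KRT7 shares 282 exon bases with its antisense gene KRT7-AS. Counts in these shared exon bases cannot be assigned to one gene of a pair.

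KRT81 and KRT86 are near-identical copies, and the sequences are shown because the values below depend on telling them apart. Their coding sequences matched at 94.5% of 1451 aligned bases, with 80 mismatches and a longest identical run of 605 bases. Of all 100-base windows of its transcripts, 29.4% of those of KRT81 occurred unchanged in KRT86, and 25.4% of those of KRT86 in KRT81. Bases 1207 to 1326 of the coding sequence, where capitals mark the 19 positions at which the copies differ, read as follows in GENCODE 29.
KRT81: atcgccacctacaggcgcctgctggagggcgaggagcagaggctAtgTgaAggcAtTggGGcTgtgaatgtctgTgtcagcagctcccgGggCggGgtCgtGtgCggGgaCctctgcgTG
KRT86: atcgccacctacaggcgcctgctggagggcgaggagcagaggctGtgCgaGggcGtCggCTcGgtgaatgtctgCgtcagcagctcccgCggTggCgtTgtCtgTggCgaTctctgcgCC
The other pairs aligned were further apart, at 76.9% for KRT17 and KRT19 and 76.6% for KRT8 and KRT7. KRT8 and KRT81 matched at 75.5%, and KRT18 and KRT19 at 68.5%. Not every pair of members was aligned. None of the 100-base windows of KRT10 or KRT19 occurred in another member or a listed keratin pseudogene.

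Upstream sequence was at hand in RefSeq (GRCh38.p14) for 2 members, the simple-epithelial KRT8, which took the most counts of all members in NOMO1 DMSO libraries, and the epidermal KRT10, which was counted in every library of both lines. The 250 bases before the start of KRT8, at chr12:52926470-52926719 on the minus strand, hold the ETS core CCGGAA once, 57 bases before the start and on the opposite strand to the gene. Those before KRT10, at chr17:40822615-40822864 on the minus strand, hold a TATAAA box 29 bases before the start. Capitals mark these matches.
KRT8: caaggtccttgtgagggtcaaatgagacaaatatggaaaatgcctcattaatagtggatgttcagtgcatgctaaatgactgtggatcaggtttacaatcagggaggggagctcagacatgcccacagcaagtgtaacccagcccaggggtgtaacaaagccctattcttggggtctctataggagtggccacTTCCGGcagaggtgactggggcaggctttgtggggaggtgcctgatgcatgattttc
KRT10: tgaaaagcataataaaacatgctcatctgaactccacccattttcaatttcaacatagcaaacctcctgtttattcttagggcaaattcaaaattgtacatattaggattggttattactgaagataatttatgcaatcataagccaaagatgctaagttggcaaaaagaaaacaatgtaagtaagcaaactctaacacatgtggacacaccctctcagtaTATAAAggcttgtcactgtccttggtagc
CCGGAA on either strand occurred in 14.5% and TATAAA in 10.7% of 35116 upstream regions of the same length. The AP-1 motif TGANTCA (in 6.57% of regions) and the SP and KLF motif GGGCGG (in 42.6%) occurred in neither of these. The KRT8 start used here is 1 of 17 annotated starts of that gene.

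Libraries held 15264862 to 29168628 gene counts in NOMO1 and 15561248 to 24262960 in OCI-AML3. Levels are given as CPM, the count of a gene relative to the library total, which was scaled by the trimmed mean of M values within a line. Among 13 genes whose transcription follows ERK activity, 11 were called lower in selumetinib than in DMSO day 3 in NOMO1 (median log2 change -3.40, all genes 0.02, with 54.1% of all genes called) and 11 in OCI-AML3 (median -1.08, all genes 0.02, with 27.4% called). The haematopoietic surface gene PTPRC (CD45) was counted in every library, at group means of 86.5 to 505 CPM in NOMO1 and 491 to 639 CPM in OCI-AML3. The NOMO1 DMSO day 3 libraries stood apart, with a mean of 17.8% of counts on mitochondrially encoded genes against 3.17% in DMSO day 6, and NOMO1 DMSO day 3 is the control of each NOMO1 comparison at day 3. Changes against DMSO day 6 are therefore given for the members whose change moved with the control. The OCI-AML3 combination day 6 libraries stood apart too, with 10.8% to 14.9% of counts on mitochondrially encoded genes and 16742 to 17438 genes detected, against 4.06% to 5.09% and 19407 to 20612 genes with VTP-50469 at day 6 and 2.48% to 3.71% and 20208 to 20482 genes in DMSO day 6. In bulk RNA, fewer cells with a transcript and less of it per cell cannot be told apart.

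KRT8 had the highest level of the members in NOMO1 DMSO libraries. It had 140, 156 and 155 CPM with VTP-50469 at day 3 and 258, 250 and 284 CPM with selumetinib, against 103, 109 and 104 CPM in DMSO day 3. The drugs together gave 159, 183 and 163 CPM at day 3. Each of these treated groups lay wholly above DMSO day 3, with log2 changes of 0.52 ± 0.09, 1.32 ± 0.09 and 0.68 ± 0.09 (± SE) for VTP-50469, selumetinib and the combination. Against DMSO day 6 in place of DMSO day 3 these changes were 0.225, 1.03 and 0.39.

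At day 6 the order was the other way round. KRT8 stood at 26.2, 20.5 and 26.6 CPM under VTP-50469 alone and at 27.2 to 34.0 CPM in the combination, against 127, 132 and 127 CPM in DMSO day 6. Both treated groups lay wholly below DMSO (log2 changes -2.40 ± 0.09 and -2.08 ± 0.09), and the combination lay wholly above VTP-50469 by 0.32 ± 0.09. With the counts of the 50 KRT8 pseudogenes added, the day 6 change with VTP-50469 was -2.09 ± 0.09.

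**Figure D1:**
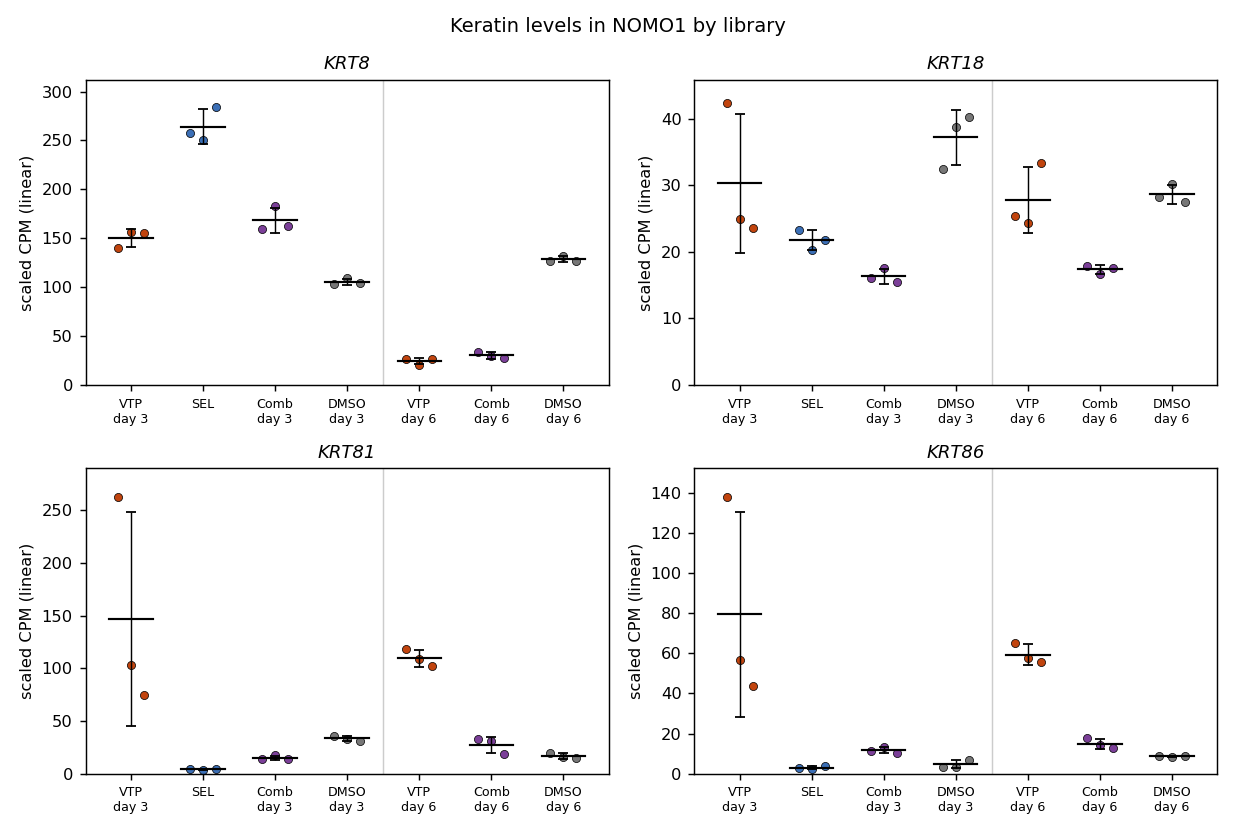
Scaled CPM (linear axes from 0) of KRT8, KRT18, KRT81 and KRT86 in the 21 NOMO1 libraries, with treated groups left of the DMSO group of the same day, points for libraries and bars for means ± SD (n = 3). KRT8 lies at 20.5 to 34.0 CPM in both treated groups of day 6 against 127 to 132 CPM in DMSO, while KRT81 and KRT86 are highest with VTP-50469 on both days.

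KRT18, the filament partner of KRT8, did not follow it. With selumetinib it had 23.3, 20.3 and 21.8 CPM, in the combination at day 3 it had 16.0, 17.6 and 15.4 CPM, and in DMSO day 3 it had 32.5, 38.7 and 40.3 CPM. Both treated groups lay wholly below DMSO (-0.77 ± 0.16 and -1.18 ± 0.16) although KRT8 was higher in each of them. VTP-50469 at day 3 gave 42.3, 24.9 and 23.6 CPM, which overlapped DMSO because replicate 1 was apart from the others. The log2 change of KRT18 was -0.30 ± 0.16 with all libraries, -0.61 ± 0.12 without replicate 1 and 0.075 ± 0.16 against DMSO day 6, so its sign depends on the control.

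At day 6 KRT18 had 25.4, 24.4 and 33.4 CPM with VTP-50469, 17.9, 16.6 and 17.6 CPM in the combination, and 28.2, 30.2 and 27.5 CPM in DMSO. The VTP-50469 group overlapped DMSO (-0.05 ± 0.16), at the day at which KRT8 was lowest, and the combination lay wholly below both (-0.72 ± 0.16 against DMSO and -0.67 ± 0.16 against VTP-50469). Against DMSO day 6 in place of DMSO day 3, KRT18 with selumetinib was -0.39 and in the combination at day 3 was -0.81.

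The ratio of KRT8 counts to KRT18 counts within a library does not depend on scaling. With selumetinib this ratio was 11, 12.4 and 13, while the combination at day 3 gave 9.97, 10.4 and 10.5, against 3.17, 2.81 and 2.58 in DMSO day 3. With VTP-50469 at day 3 it was 3.32, 6.28 and 6.57. At day 6 VTP-50469 gave 1.03, 0.841 and 0.795 and the combination 1.90, 1.81 and 1.54, against 4.5, 4.39 and 4.62 in DMSO. The type II to type I balance of this pair thus spanned 0.795 to 13 over the NOMO1 libraries. It lay below DMSO day 6 in both treated groups of day 6, and above both DMSO groups with selumetinib and in the combination at day 3. The ratio differed between the DMSO groups themselves, and VTP-50469 at day 3 lay wholly above DMSO day 3 but had libraries on either side of DMSO day 6. Over the 21 NOMO1 libraries the log2 levels of the 2 genes had a Pearson r of 0.03, a description over libraries that share groups.

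**Figure D2:**
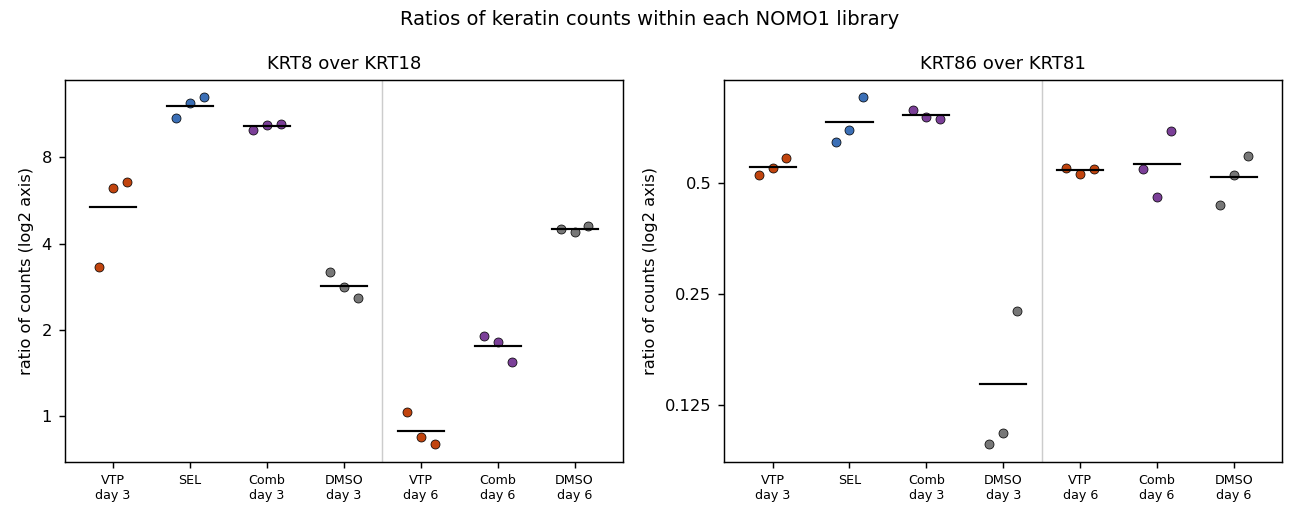
Ratio of KRT8 to KRT18 counts and of KRT86 to KRT81 counts within each of the 21 NOMO1 libraries (log2-spaced axes), with treated groups left of the DMSO group of the same day and points for libraries. The KRT8 to KRT18 ratio lies at 0.795 to 1.03 with VTP-50469 at day 6 and at 11 to 13 with selumetinib, and the KRT86 to KRT81 ratio is lowest in DMSO day 3.

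The hair keratins KRT81 and KRT86 were higher with VTP-50469 than with DMSO in NOMO1 on both days. KRT81 had 263, 103 and 75.2 CPM with VTP-50469 at day 3, against 36.1, 33.3 and 31.5 CPM in DMSO day 3. At day 6 it had 118, 109 and 102 CPM with VTP-50469, against 20.1, 15.7 and 14.9 CPM in DMSO day 6. The groups did not overlap on either day, and the log2 changes were 2.13 ± 0.36 and 2.70 ± 0.37. Replicate 1 of VTP-50469 day 3 was far above the other replicates, and the day 3 change was 1.41 ± 0.19 without it and 3.12 against DMSO day 6.

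KRT81 was lower with selumetinib than with DMSO. Selumetinib libraries had 4.52, 3.58 and 4.28 CPM of it and combination libraries of day 3 had 14.1, 17.6 and 14 CPM, all below the 31.5 to 36.1 CPM of DMSO day 3 (-3.01 ± 0.43 and -1.14 ± 0.37). Against DMSO day 6 these changes were -2.02 and -0.15, so the difference between the combination and DMSO rests on which control is used. At day 6 the combination had 32.6, 31.1 and 18.3 CPM, which lay below every VTP-50469 library (-2.0 ± 0.36) and overlapped DMSO day 6 (0.70 ± 0.36).

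KRT86 had 138, 56.5 and 43.9 CPM with VTP-50469 at day 3, against 3.52, 3.52 and 7.03 CPM in DMSO day 3. At day 6 it had 65.2, 57.4 and 55.5 CPM with VTP-50469, against 8.75, 8.24 and 8.83 CPM in DMSO. Both treated groups lay wholly above DMSO, by 4.10 ± 0.39 and 2.79 ± 0.36, and the day 3 change was 3.44 ± 0.20 without replicate 1 of VTP-50469 and 3.21 against DMSO day 6.

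In the combination, KRT86 had 11.1, 13.3 and 10.4 CPM at day 3 and 17.7, 14.2 and 12.6 CPM at day 6. Both groups lay between VTP-50469 and DMSO of the same day, without overlap with either, at -2.77 ± 0.35 and -2.0 ± 0.34 against VTP-50469. The day 3 value was -2.11 ± 0.18 without replicate 1 of VTP-50469. Selumetinib alone gave 2.91, 2.49 and 3.66 CPM, which overlapped DMSO day 3 (-0.61 ± 0.46). Against DMSO day 6, KRT86 changed by -1.50 with selumetinib and 0.43 in the combination at day 3. The ratio of KRT86 to KRT81 counts was 0.526 to 0.584 with VTP-50469 at day 3 and 0.0975, 0.105 and 0.224 in DMSO day 3, against 0.527 to 0.550 with VTP-50469 and 0.434 to 0.591 in DMSO at day 6. Since reads from the identical stretches may be moved between the copies or dropped, the sum of both was also fitted, and its log2 change was 2.56 ± 0.34 with VTP-50469 at day 3, 2.73 ± 0.35 at day 6 and -2.41 ± 0.39 with selumetinib. For the combination the sum changed by -0.51 ± 0.34 at day 3, opposite in sign to KRT86 alone (1.32 ± 0.40), and by 0.73 ± 0.34 at day 6.

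KRT10, the epidermal type I keratin, had group means from 15.6 to 29.4 CPM in NOMO1. In NOMO1 it averaged 25.4 ± 3.34 CPM with VTP-50469 at day 3, 18.8 ± 2.53 with selumetinib, 15.6 ± 2.13 in the combination at day 3 and 29.4 ± 1.54 in DMSO day 3 (SD, n = 3 each). At day 6 the means were 18.3 ± 4.41 with VTP-50469, 18.9 ± 1.38 in the combination and 18.7 ± 2.90 in DMSO. The 3 day 6 groups overlapped. Selumetinib lay wholly below DMSO day 3 (-0.65 ± 0.15), but its change was 0.006 ± 0.15 against DMSO day 6, so the direction depends on the control, and the combination at day 3 was -0.92 ± 0.15 against DMSO day 3 and -0.265 against DMSO day 6. With VTP-50469 at day 3 it was -0.21 ± 0.15 against DMSO day 3 and 0.44 ± 0.15 against DMSO day 6. In OCI-AML3 the 7 group means ran from 15 to 21.7 CPM, and each treated group overlapped its DMSO group except selumetinib, which lay just below it (13.5 to 16.6 CPM against 16.7 to 21.2 CPM).

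The 3 other members had few counts in NOMO1 apart from single libraries. KRT7 had 11, 351 and 4 counts with VTP-50469 at day 3, against 17, 4 and 24 in DMSO day 3. KRT17 had 16, 306 and 8 counts with VTP-50469 at day 3 and 0 in each DMSO day 3 library, so that group was at least 99.9-fold higher (against 3 counts over the DMSO group). Without replicate 2 the bound was 11.2-fold, and against DMSO day 6, which had 9, 0 and 0 counts, the log2 change was 5.24 ± 1.34. KRT19 had 0, 530 and 0 counts with VTP-50469 at day 3, 0, 0 and 227 with VTP-50469 at day 6, and none in any other NOMO1 library. Replicate 2 of VTP-50469 day 3 thus held most of its group's counts of all 3 genes, and replicate 3 of VTP-50469 day 6 held all the KRT19 counts of its group.

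The same libraries stood out for other epithelial genes. Of 20 epithelial junction, surface and basal keratin markers, replicate 2 of VTP-50469 day 3 was the highest library of its group for 18, with KRT14 at 591 counts, KRT5 at 483, PKP1 at 130 and CDH1 at 89, while CDH1, PKP1, KRT5 and KRT14 had 0 counts in all DMSO day 3 libraries. Replicate 3 of VTP-50469 day 6 was the highest of its group for 11 of the 18 markers detected, with 52 CDH1 counts against 0 and 0 in the others, and KRT5 and KRT14 were at 0 in all 3. The summed level of the list without its keratins was 306 to 389 CPM with VTP-50469 at day 3 against 208 to 213 CPM in DMSO day 3, and 248 to 266 CPM with VTP-50469 at day 6 against 290 to 318 CPM in DMSO day 6. Of the 13 markers tested, 1 was called higher and 5 lower at day 6 (median log2 change -0.84, all genes -0.01, with 48.8% of all genes called). Stromal markers summed to 50.4 to 76.2 CPM with VTP-50469, 116 to 131 CPM with selumetinib and 241 to 260 CPM in the combination at day 3, against 33.9 to 38.1 CPM in DMSO day 3, and 4 of 7 were called higher with VTP-50469 (median 1.55, all genes 0.07, with 52.4% called). At day 6 they summed to 36.1 to 42.8 CPM with VTP-50469 and 117 to 125 CPM in the combination, against 30.4 to 32.3 CPM in DMSO. Haematopoietic markers summed to 11000 to 11900 CPM with VTP-50469 at day 6 and 7210 to 7620 CPM in DMSO day 6, with 8 of 9 called higher (median 0.84). Markers with few counts in DMSO pass the filter on low counts only through groups in which they are high. Nothing is therefore read from the numbers of epithelial and stromal markers called. The part of these markers in the values of KRT7, KRT17 and KRT19 was not tested. Without replicate 2, KRT7 with VTP-50469 at day 3 was -1.04 ± 0.94, against 2.79 ± 1.16 with all libraries.

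NOMO1 expressed part of this marker list both with and without treatment. JUP (plakoglobin) averaged 147 to 287 CPM and DSG2 (desmoglein 2) 29.8 to 117 CPM over the 7 NOMO1 groups. KRT8 itself was at 103 CPM or more in each DMSO library, in which CDH1, KRT5 and KRT14 were at 0.

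**Figure D3:**
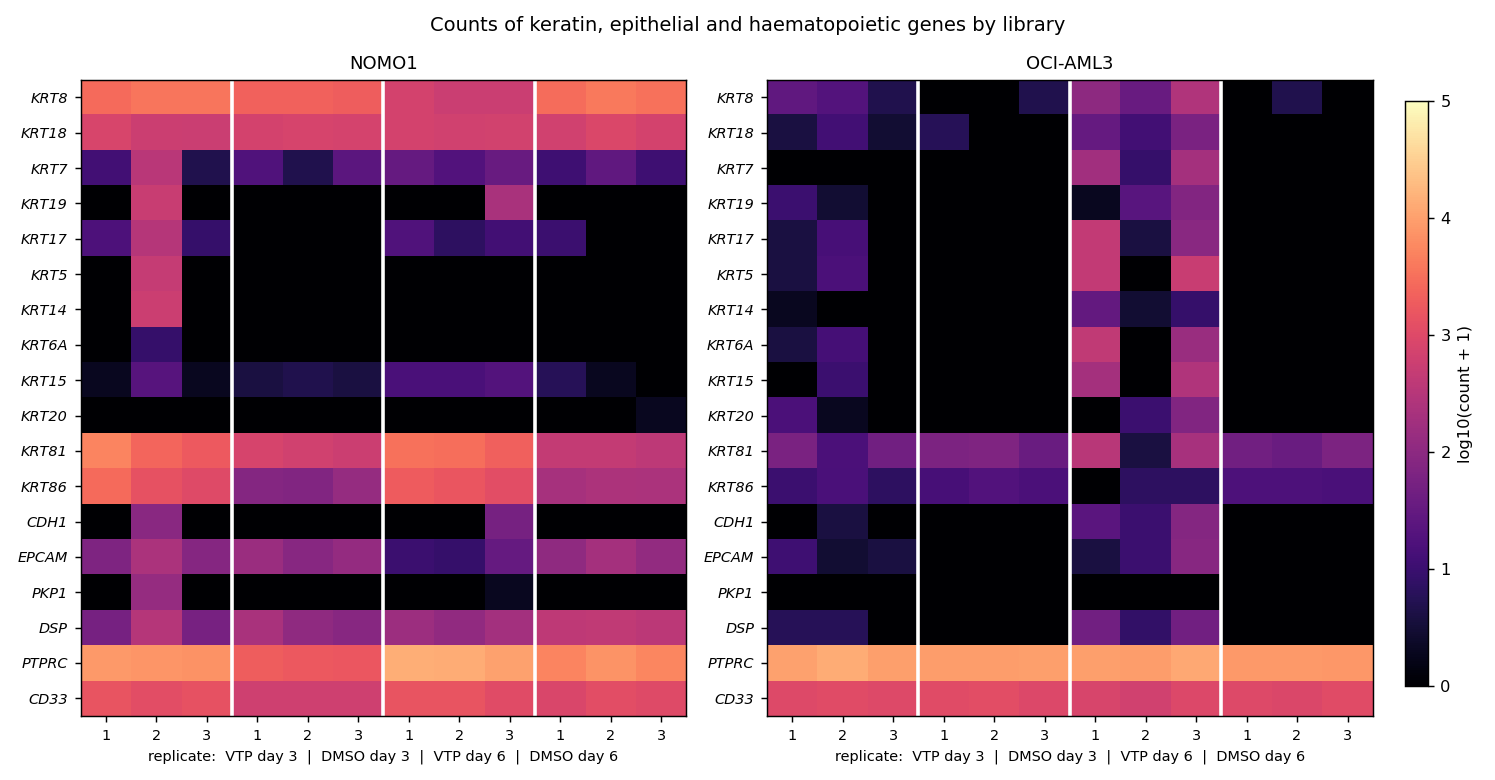
Counts on a log10 scale after adding 1 (colour) of keratin, epithelial and haematopoietic genes (rows) in the libraries of VTP-50469 and DMSO (columns, replicates 1 to 3, with VTP-50469 left of DMSO of the same day), for NOMO1 and OCI-AML3. KRT5 and KRT14 reach 483 and 591 counts in replicate 2 of NOMO1 VTP-50469 day 3 and are at 0 in the NOMO1 DMSO libraries.

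Over the 7 members tested in NOMO1 (KRT19 did not pass the filter on low counts), VTP-50469 was called higher than DMSO for 4 at day 3 (KRT8, KRT17, KRT81 and KRT86), where 52.4% of all genes tested were called, and for 2 at day 6 (KRT81 and KRT86) with KRT8 lower, where 48.8% were called. With selumetinib 1 was higher (KRT8) and 3 lower (KRT10, KRT18 and KRT81), beside 54.1% of all genes. The combination at day 3 had 2 higher (KRT8 and KRT86) and the same 3 lower, beside 58.7%, and at day 6 it had KRT8 and KRT18 lower, beside 55.4%. Against VTP-50469 alone, the combination at day 3 had all tested members but KRT8 lower, 6 in all, beside 35.2%, and 4 without replicate 2 of VTP-50469. At day 6 it had KRT18, KRT81 and KRT86 lower and KRT8 higher, beside 27.6%. Between the DMSO groups, day 6 against day 3, KRT8 was higher and KRT10, KRT18 and KRT81 lower, beside 51% of all genes, and 2 to 3 members were called with any 1 library left out. The choice of members used these comparisons, so nothing is read from these counts.

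In OCI-AML3 the untreated cells had few keratin counts apart from KRT10. KRT81 had 63, 70 and 36 counts in DMSO day 3 and 46, 37 and 63 in DMSO day 6, and KRT86 had 13, 18 and 15 and then 16, 16 and 14. The other 5 members had at most 5 counts in any DMSO library, and KRT7, KRT17 and KRT19 had 0 in all 6.

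The hair keratins were lower with selumetinib than with DMSO in OCI-AML3. KRT81 had 7, 0 and 6 counts with selumetinib, against 63, 70 and 36 in DMSO day 3, a log2 change of -3.77 ± 1.22. It had 3, 0 and 0 counts in the combination at day 3, a ratio of 58.2 between the summed DMSO and combination counts per total (exact 95% interval 19.6 to 285, counting error only), and 0 in all libraries of the combination at day 6, at least 43.2-fold lower than DMSO. None of these groups overlapped DMSO.

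KRT86 had 0 counts in every OCI-AML3 library with selumetinib and in every library of the combination on both days. Its level was at least 16.4-fold lower with selumetinib, at least 15.8-fold lower in the combination at day 3 and at least 13.6-fold lower in the combination at day 6, each bound set by 3 counts over the group. With VTP-50469 alone KRT86 had 9, 14 and 6 counts at day 3 and 0, 6 and 6 at day 6, against 16, 16 and 14 in DMSO day 6. The VTP-50469 day 6 group lay wholly below DMSO day 6 (-2.02 ± 1.02), a direction opposite to that of KRT86 in NOMO1 under the same drug. The sum of KRT81 and KRT86 changed by 1.441 ± 0.79 in that group, opposite in sign to KRT86 alone.

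With VTP-50469 at day 6 several epithelial keratins appeared in OCI-AML3. KRT8 had 104, 34 and 267 counts, against 0, 4 and 0 in DMSO day 6, a log2 change of 6.34 ± 1.73. That value rests on the 4 counts of DMSO replicate 2, without which DMSO had 0 counts and the fitted value was 9.97 ± 2.99. KRT17 had 443, 3 and 90 counts, KRT18 had 32, 11 and 59, KRT19 had 1, 22 and 74, and KRT7 had 181, 8 and 198, each against 0 in all DMSO day 6 libraries. These groups did not overlap DMSO, and the summed counts were at least 168-fold (KRT17), 121-fold (KRT7), 31.9-fold (KRT18) and 30.4-fold (KRT19) higher. The bound was 42-fold for KRT17 without replicate 1 and 11.9-fold for KRT19 without replicate 3. KRT81 had 334, 3 and 210 counts, against 46, 37 and 63, and overlapped DMSO because of replicate 2. The replicates differed widely: replicate 2 was the lowest of its group for KRT7, KRT8, KRT17, KRT18 and KRT81.

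Replicate 2 of VTP-50469 day 6 was the lowest of its group for the summed level of other epithelial markers too. Across groups, that sum was above DMSO also in the combination, where the epithelial keratins had few counts. The number of markers at 0 is therefore given beside it. In VTP-50469 day 6, replicate 3 was the highest library for 12 of 19 detected markers, replicate 1 for 7 and replicate 2 for 0. CDH1 had 23, 9 and 81 counts, EPCAM 3, 9 and 87, and DSP (desmoplakin) 46, 7 and 46, all at 0 in DMSO day 6. The summed level of the list without its keratins was 41.8 to 69.5 CPM against 23.9 to 24.3 CPM in DMSO day 6, and 44.6 to 59.8 CPM in the combination, in which 13 of the 20 markers were at 0 in all 3 libraries, against 1 (PKP1) with VTP-50469 and 12 in DMSO. At day 3 the sum was 65.2 to 72.5 CPM in the combination and 23.6 to 27.5 CPM in DMSO. There, 10 of the 20 markers, CDH1, EPCAM and DSP among them, were at 0 in all 3 combination libraries, against 12 in DMSO. KRT7, KRT17 and KRT18 had 0 counts in that combination group. Of 9 markers tested, 6 were called higher and 1 lower with VTP-50469 at day 6 (median log2 change 1.39, all genes 0.01, with 34.7% of all genes called). Markers at 0 in DMSO passed the filter on low counts only through treated groups in which they were high. Nothing is therefore read from this count or from the stromal one below. Stromal markers summed to 62.3 to 80.6 CPM with VTP-50469 at day 6, 27.2 to 35.7 CPM in the combination and 12.4 to 14.2 CPM in DMSO, with 2 of 7 called higher (median 1.55). Haematopoietic markers summed to 1050 to 1080 CPM with VTP-50469 and 908 to 966 CPM in DMSO, with 3 of 8 called higher and 3 lower (median -0.08). Their part in the keratin values was not tested.

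**Figure D4:**
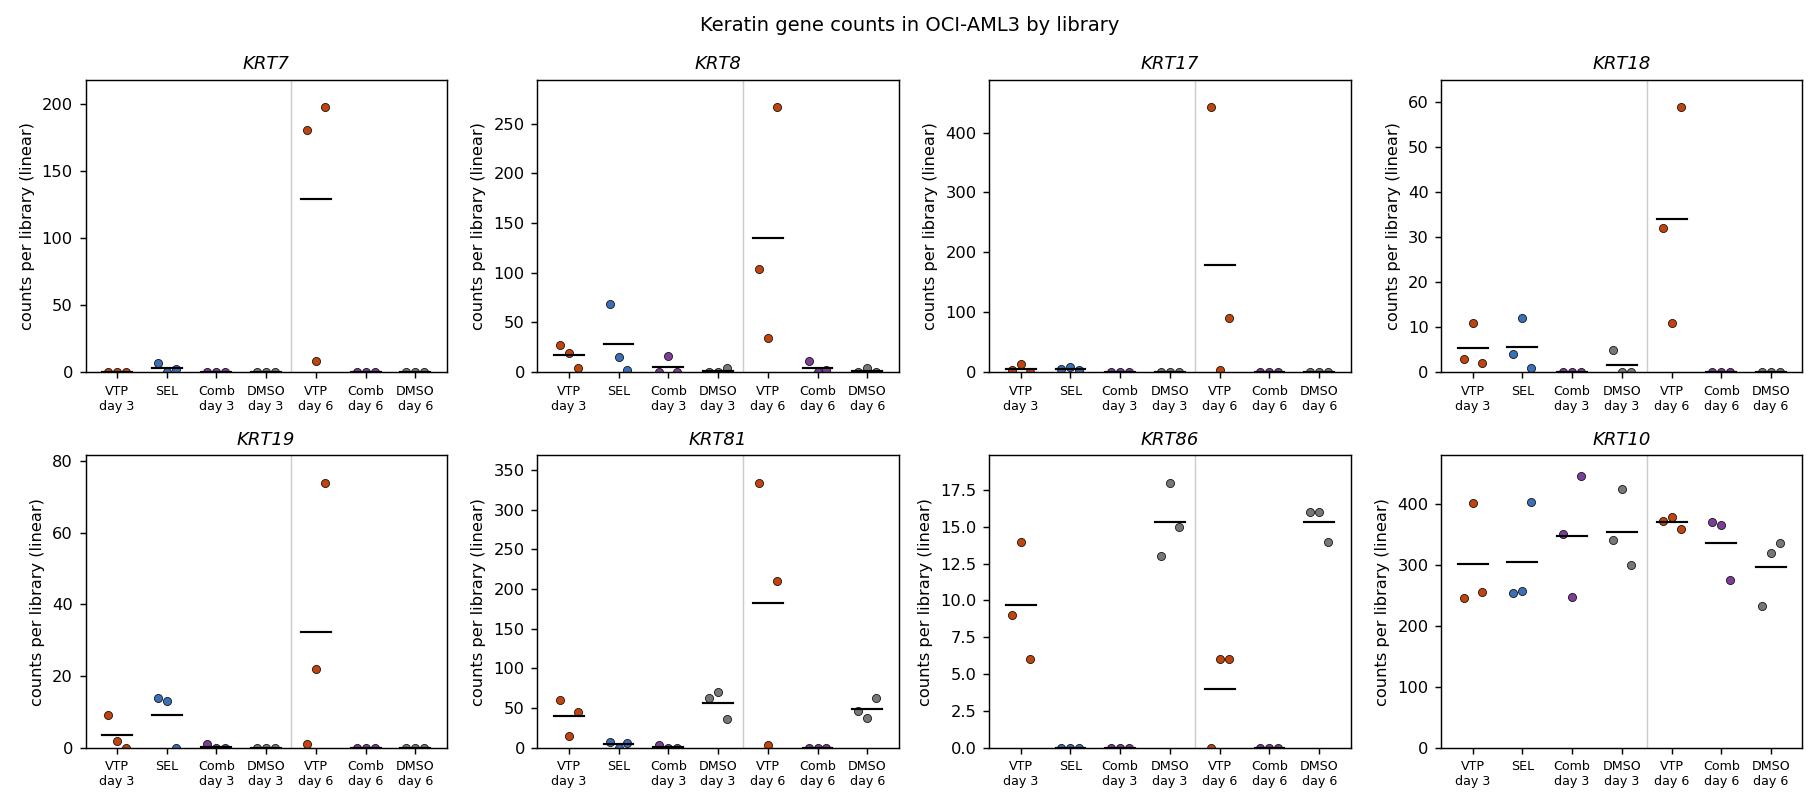
Counts per library (linear axes from 0, each with its own range) of the 8 members in the 21 OCI-AML3 libraries, with treated groups left of the DMSO group of the same day, points for libraries and bars for means. KRT7, KRT8, KRT17, KRT18 and KRT19 appear with VTP-50469 at day 6 and are at 0 to 11 counts in the combination of that day, and KRT86 is at 0 wherever selumetinib was given.

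With both drugs at day 6, all members but KRT10 were at or near 0 counts. KRT7, KRT17, KRT18, KRT19, KRT81 and KRT86 had 0 counts in all 3 libraries and KRT8 had 11, 0 and 2. Relative to VTP-50469 alone the combination was at least 152-fold lower for KRT81, 149-fold for KRT17, 108-fold for KRT7, 28.3-fold for KRT18, 27.0-fold for KRT19 and 3.33-fold for KRT86, and the log2 change of KRT8 was -4.55 ± 1.49. Without replicate 1 of VTP-50469 the bound was 85.4-fold for KRT81 and 37.3-fold for KRT17, and without replicate 3 it was 10.6-fold for KRT19. With the counts of their pseudogenes added, the change was -0.61 ± 0.50 for KRT18 and -1.265 ± 0.345 for KRT8. The combination libraries are those with the high mitochondrial share and fewer genes detected given above, and the part of this in the low keratin counts was not tested. KRT10 had 371, 366 and 275 counts in the same libraries. Day 3 showed less of this: with VTP-50469 KRT8 had 27, 19 and 4 counts, KRT17 had 3, 13 and 0, KRT18 had 3, 11 and 2, and KRT19 had 9, 2 and 0, and all members overlapped DMSO day 3. With selumetinib alone KRT8 had 69, 15 and 2 counts and KRT19 had 14, 13 and 0.

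Of the 7 members tested in OCI-AML3 (all but KRT7), none was called with VTP-50469 at day 3 by edgeR or by DESeq2, where 10.9% of all genes were called, and at day 6 KRT8, KRT17, KRT18 and KRT19 were called higher, beside 34.7% of all genes. Without replicate 2 of VTP-50469 day 6 there were 6 calls. With selumetinib KRT19 was called higher and KRT81 and KRT86 lower, beside 27.4%, but only 1 member was called without DMSO day 3 replicate 1 or 2 or without selumetinib replicate 1 or 2. KRT81 and KRT86 were called lower in the combination at day 3 (beside 48.1%) and at day 6 (beside 49.6%). Against VTP-50469 alone, the combination had KRT18, KRT81 and KRT86 lower at day 3, beside 42.2%, with 1 call without combination replicate 2 or 3, and all tested members but KRT10 lower at day 6, beside 41.3%, with 4 calls without VTP-50469 replicate 3 or combination replicate 2 or 3. Between the DMSO groups no member was called, beside 0% of all genes. There, edgeR called 0 of 16384 genes, 174 had an unadjusted p under 0.05, and DESeq2 called 1. As in NOMO1, nothing is read from these counts.

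The members were picked for changes within a line, and those changes were measured against the same DMSO libraries. The difference between the untreated lines was tested in 1 fit of all 42 libraries. It is not independent of the choice of members, and its p-values are given with that limit. At day 6, 6 of the 8 members were higher in NOMO1 than in OCI-AML3, beside 61.3% of all genes called in either direction, with a median log2 difference of 4.11 against 0.001 over all genes. With genes at 0 in OCI-AML3 set at their lower bound, the median of the 7 members counted was 3.52. Those 6 were KRT7, KRT8, KRT10, KRT18, KRT81 and KRT86, and each was higher at day 3 too, beside 66.8% (median 3.37 against 0.02, and 3.72 over 6 members with the bound). The simple-epithelial pair differed most. KRT8 summed to 10242 counts in NOMO1 DMSO day 6 and 4 in OCI-AML3 DMSO day 6, a log2 difference of 10.98 ± 0.72 (edgeR quasi-likelihood, adjusted p = 4.12e-14). KRT18 summed to 2280 counts in NOMO1 and 0 in OCI-AML3, at least 543-fold higher (edgeR adjusted p = 4.94e-15). All NOMO1 libraries were above all OCI-AML3 libraries for both genes.

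The hair and epidermal keratins were also higher in NOMO1. At day 6 KRT86 summed to 681 counts in NOMO1 and 46 in OCI-AML3 (log2 difference 3.67 ± 0.41, edgeR adjusted p = 9.64e-09), KRT81 to 1327 and 146 (2.98 ± 0.62, edgeR adjusted p = 0.000142) and KRT10 to 1464 and 889 (0.53 ± 0.18, edgeR adjusted p = 0.0124). KRT7 summed to 48 counts in NOMO1 and 0 in OCI-AML3, at least 11.4-fold higher (edgeR adjusted p = 0.0251). The day 6 calls of KRT7 and KRT10 were weak: KRT7 was lost without NOMO1 replicate 2 or any 1 OCI-AML3 replicate, and KRT10 without NOMO1 replicate 1 or OCI-AML3 replicate 1 and, at 0.26, when libraries were scaled by their totals. KRT17 had 9 counts in NOMO1 DMSO day 6, all in replicate 1, and 0 in OCI-AML3 (edgeR adjusted p = 0.259), and KRT19 had 0 in all 6 libraries of that day.

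At day 3 the differences were 10.77 ± 0.73 for KRT8, 8.97 ± 0.51 for KRT18, 3.86 ± 0.61 for KRT81, 2.87 ± 0.44 for KRT86 and 1.01 ± 0.18 for KRT10, with edgeR adjusted p-values from 1.55e-15 to 5.12e-06. KRT7, at 45 counts in NOMO1 and 0 in OCI-AML3, had an edgeR adjusted p of 0.0146. Per kilobase of transcript, the order of levels in NOMO1 DMSO day 6 was KRT8 (76.5 CPM per kb), KRT18 (18.3), KRT10 (8.80), KRT81 (8.76), KRT86 (3.88) and KRT7 (0.331). In OCI-AML3 DMSO day 6 it was KRT10 (7.96), KRT81, KRT86 (0.396) and KRT8 (0.0455). KRT10 and KRT81 were neighbours in NOMO1 whose levels lay within their spread, and KRT10 led the members in OCI-AML3.

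**Figure D5:**
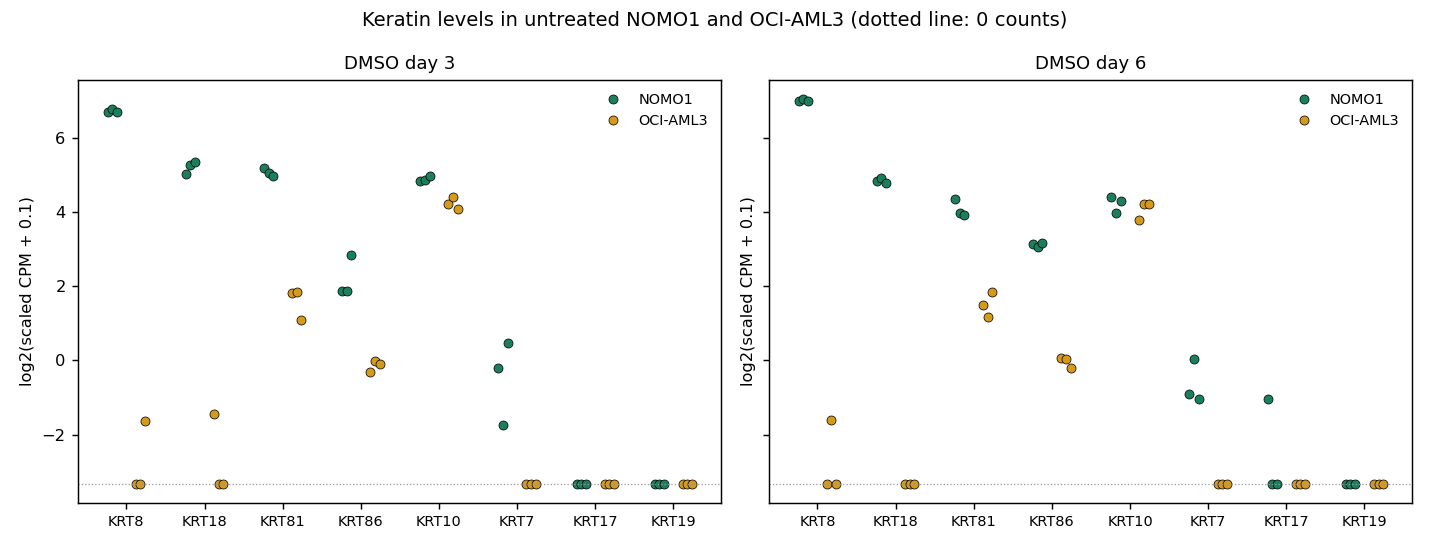
Levels (log2 of scaled CPM after adding a small constant) of the 8 members in the DMSO libraries, 3 per line, at day 3 and day 6, with NOMO1 left of OCI-AML3 and the dotted line at 0 counts. KRT8 and KRT18 separate the lines most, KRT10 lies close in both, and KRT19 is at 0 throughout.

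Other keratin genes were looked at in the same fits. The table holds 47 further keratin genes, of which 27 had any count and 9 reached a group mean of 1 CPM (KRT3, KRT5, KRT6A, KRT14, KRT15, KRT20, KRT23, KRT36 and KRT79). In NOMO1 with VTP-50469 at day 6, 5 of the 47 passed the filter on low counts and were called higher, beside 48.8% of all genes. A keratin with few counts in DMSO passes that filter only through groups in which it is high. Nothing is therefore read from this count or from the other counts of these keratins. The same holds for their p-values for a rise, or for a fall from such a group. KRT3, the type II keratin of the cornea, had 456, 372 and 337 counts with VTP-50469 at day 6, against 8, 21 and 18 in DMSO day 6 (4.69 ± 0.39, edgeR adjusted p = 2.08e-10). KRT23, a type I keratin, had 262, 229 and 207 counts and a mean of 9.14 ± 0.768 CPM, against 0.108 CPM in DMSO (6.28 ± 0.46, edgeR adjusted p = 8.95e-12). Neither group overlapped its DMSO group, and each library of VTP-50469 was high for both genes.

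Both fell with selumetinib against DMSO day 3. With selumetinib KRT3 had 0 counts in all libraries, against 0.539 ± 0.126 CPM in DMSO day 3 (edgeR adjusted p = 2.3e-05), and KRT23 had 0, 0 and 1 counts, against 14, 8 and 10 in DMSO day 3 (edgeR adjusted p = 3.55e-05). They were among 4 of 5 tested keratins called lower, beside 54.1% of all genes. KRT23 was itself lower in DMSO day 6 than in DMSO day 3 (-2.165 ± 0.56, edgeR adjusted p = 0.00191), while KRT3 averaged 0.578 ± 0.2 CPM in DMSO day 6. In the combination at day 3 KRT3 had 2, 0 and 0 counts, and KRT23 averaged 0.501 ± 0.232 CPM, against 0.522 ± 0.118 CPM in DMSO day 3 (-0.05 ± 0.45, edgeR adjusted p = 0.928). In the combination at day 6 KRT3 averaged 0.834 ± 0.143 CPM and KRT23 4.14 ± 0.786 CPM, below VTP-50469 alone. The log2 changes against VTP-50469 were -4.17 ± 0.37 and -1.14 ± 0.32. All 5 tested were called lower in this comparison, beside 27.6% of all genes. Against DMSO day 6, KRT23 rose in the combination (5.14 ± 0.46, edgeR adjusted p = 2.52e-10), and KRT3 did not pass the threshold (0.51 ± 0.42, edgeR adjusted p = 0.319). KRT3 was higher in untreated NOMO1 than in OCI-AML3 at day 6 (47 counts in NOMO1 and 0 in OCI-AML3, edgeR adjusted p = 6.62e-06), and KRT23 was lower (-1.92 ± 0.63, edgeR adjusted p = 0.00782).

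In OCI-AML3 with VTP-50469 at day 6, 3 of 4 other keratins tested were called higher, beside 34.7% of all genes. These 3 had 0 counts in DMSO and passed the filter on low counts through treated libraries, so no p-value is given for them. The hair keratin KRT36 had 26, 8 and 34 counts against 0 in DMSO, and it was the only type I hair keratin to reach a group mean of 1 CPM in either line. The basal keratinocyte gene KRT5 had 446, 0 and 527 counts and KRT6A, a partner of KRT17, had 424, 0 and 146, both against 0 in DMSO. Replicate 2 had none of either gene, as it had few counts of the members.

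Genes of other intermediate filaments and their linkers gave the setting. In untreated NOMO1 at day 6, VIM (vimentin) was lower than in OCI-AML3 (log2 difference -4.28 ± 0.14, edgeR adjusted p = 5.69e-25) and DES (desmin, the filament protein of muscle) higher (8.77 ± 0.40, edgeR adjusted p = 1.82e-18), among 5 higher and 4 lower of 16 tested (median -0.05), beside 61.3% of all genes called. VIM group means ran from 8.84 to 89.1 CPM in NOMO1 and from 517 to 1130 CPM in OCI-AML3, and those of DES from 72.3 to 150 CPM in NOMO1 and up to 0.429 CPM in OCI-AML3. With VTP-50469 in NOMO1, VIM fell at day 3 (-2.18 ± 0.17, edgeR adjusted p = 1.36e-10) and rose at day 6 (1.60 ± 0.15, edgeR adjusted p = 6.8e-09), on the days at which KRT8 was above and below DMSO. The day 3 fall is against the DMSO day 3 libraries that stood apart, and VIM was not set against DMSO day 6 there. Of this list 5 of 15 rose and 5 fell in NOMO1 at day 6 (median -0.52, all genes -0.01), beside 48.8% of all genes called, and 7 of 14 rose and 1 fell in OCI-AML3 (median 0.33, all genes 0.01), beside 34.7%.

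Of 25 transcription factors linked to keratin genes, 14 of 21 tested rose and 1 fell in NOMO1 with VTP-50469 at day 6 (median 0.51, all genes -0.01), beside 48.8% of all genes called. With selumetinib 7 rose and 6 fell (median 0.22, all genes 0.02), beside 54.1%, and in OCI-AML3 with VTP-50469 at day 6, 8 of 22 rose and 5 fell (median 0.27, all genes 0.01), beside 34.7%. FOSL1, an AP-1 subunit that follows ERK activity, fell with selumetinib in NOMO1 (-2.36 ± 0.33) and in the combination against VTP-50469 at day 6 (-3.22 ± 0.38, edgeR adjusted p = 2.91e-07).

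TP63, the regulator of stratified epithelium and of basal keratins, did not follow the keratins in OCI-AML3. It had 771, 705 and 991 counts with VTP-50469 at day 6 and 750, 699 and 889 in the combination, against 68, 22 and 54 in DMSO (4.0 ± 0.36, edgeR adjusted p = 1.39e-07, and 4.19 ± 0.36, edgeR adjusted p = 3.44e-08). The combination did not differ from VTP-50469 past the threshold (0.19 ± 0.28, edgeR adjusted p = 0.643), while 6 members were at 0 counts in its libraries. Replicate 2 of VTP-50469, low in the keratins, had TP63 counts close to those of replicate 1. In NOMO1 TP63 fell with VTP-50469 at day 6 (-1.53 ± 0.30, edgeR adjusted p = 9.93e-05). Between the untreated lines at day 6, TFAP2A was higher in NOMO1 (4.22 ± 0.17, edgeR adjusted p = 1.25e-24) and TFAP2C lower (-6.29 ± 0.49, edgeR adjusted p = 1.76e-14), among 5 higher and 10 lower of 23 (median -0.25). Both encode AP-2 factors, which bind many keratin promoters.

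The genes with the most similar profiles were found by Pearson r of log2 CPM over the 21 libraries of a line, as a description with no p-value. In NOMO1 the nearest to KRT8 among 11358 genes were PTK7 (0.98), AFF3 (0.97) and PLCXD1 (0.96), the nearest to KRT18 were PSPH (0.93), PYGL (0.92) and NOP10 (0.91), and the nearest to KRT86 were KIF21B (0.97), SLC9A3R1 (0.95) and CORO1A (0.95). KRT81 was nearest to GRK6 (0.96), CCL2 (0.94) and CKAP4 (0.94), and had an r of 0.87 with KRT86 and -0.54 with KRT8. KRT19 was nearest to MAL2 (0.97), AZGP1 (0.96) and IGFBP5 (0.95), over libraries of which 2 had counts. In OCI-AML3, KRT81 was nearest to PSMD7 (0.91), SLC37A4 (0.88) and EZH2 (0.88), and KRT7 had an r of 0.89 with KRT17. KRT7 had counts in that line only with VTP-50469 at day 6 and, at 7, 0 and 2, with selumetinib.

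The pseudogenes of the members gave a check on stray reads. The 50 KRT8 pseudogenes summed to 4.85 ± 0.792 CPM with VTP-50469 at day 6 and 5.88 ± 0.813 CPM in DMSO day 6 in OCI-AML3, where KRT8 itself was near 0 in DMSO and counted in every library of that VTP-50469 group. With them added the OCI-AML3 change of KRT8 was 0.96 ± 0.34. The 68 KRT18 pseudogenes summed to 2.92 ± 0.248 CPM with VTP-50469 and 3.04 ± 0.524 CPM in the combination, against 0.814 ± 0.198 CPM in DMSO, at day 6 in OCI-AML3. With them added the change of KRT18 against DMSO day 6 was 2.505 ± 0.55 with VTP-50469 and 1.89 ± 0.55 in the combination, in which KRT18 itself had 0 counts. The 8 KRT17 pseudogenes summed to 9.08 CPM with VTP-50469 at day 3 and 8.75 ± 0.192 CPM in DMSO day 3 in NOMO1, where KRT17 had 0 counts in DMSO, and with them added the change of KRT17 was 0.65 ± 0.21. KRT17P2, at 260 counts in NOMO1 and 0 in OCI-AML3 (edgeR adjusted p = 1.06e-11), was among 5 of 11 keratin pseudogenes tested that were higher in untreated NOMO1 than in OCI-AML3 at day 6 (median 1.56, and 1.79 over 10 with genes at 0 set at their bound), with none lower. Whether these reads come from the pseudogenes or were assigned from the members was not tested.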

How the data were processed

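Polyadenylated RNA of both lines was sequenced without strand information. Per the submitters' processing notes the build was hg38 and the tools were DESeq2 1.44.0, featureCounts (Subread 2.0.6), STAR, FastQC 0.11.9 and MultiQC 1.14. What the authors deposited is 1 table of raw read counts per gene, in whole numbers. Of its columns 3, which repeat the OCI-AML3 selumetinib columns under another name, match no labelled library and were not used, and 1 of 58870 genes was dropped for an empty cell. The labels spell the menin inhibitor in more than 1 way, and the form of the series description is used. Nothing in the labels says that replicates are separate cultures, so p-values measure the spread between these libraries, which may be technical.

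Each line was fitted on its own (7 group means, 21 libraries) in edgeR 4.0.16 with limma 3.58.1 under R 4.3.3, with filterByExpr, trimmed mean of M values scaling, robust quasi-likelihood tests and p-values adjusted by Benjamini-Hochberg over all genes tested (16384 in OCI-AML3 and 16561 in NOMO1). The difference between untreated lines came from a fit of all 42 libraries (18707 genes). A gene is called at an adjusted p under 0.05. CPM use the scaled totals of a line, and changes are on the log2 scale with standard errors. Where a group had 0 counts, folds are given as bounds computed with 3 counts for that group. Intervals and bounds cover counting error only. The edgeR fit was tested on simulated counts, with changes put only into genes of higher counts. That test does not cover members near 0 counts or the other steps.

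The members and all lists (markers of epithelial, stromal and haematopoietic cells, other filaments, keratin-linked factors and ERK output genes) were chosen with earlier results of these data known. Named were all members, other keratins with a group mean of at least 1 CPM, up to 4 called genes of smallest adjusted p per list described, and the 3 most similar profiles per member among genes with a group mean of at least 5 CPM. The marker genes whose counts are given per library, and TP63 and FOSL1, were chosen after their values were seen. Gene positions and coding sequences are from GENCODE 29 and upstream sequences from RefSeq. Replicate numbers did not pair the libraries (see the closing section). Alternatives were scaling by library totals or by relative log expression size factors, DESeq2 1.42.0, low-count filters (none, or 1 CPM in 3 libraries), only the groups compared, the replicate number as a block, DMSO day 6 as control, mitochondrial genes removed, summed near-identical genes and leaving out each library.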

Additional observations from a re-analysis of the deposited data

Results flagged for a closer look

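KRT8 with VTP-50469 at day 6 went opposite ways in the lines, with every NOMO1 library below its DMSO libraries (-2.40, log2) and every OCI-AML3 library above (6.34, which rests on 4 counts in 1 DMSO library, and 0.96 with its pseudogenes added). KRT86 with VTP-50469 at day 6 was above DMSO in every NOMO1 library (2.79) and below DMSO in every OCI-AML3 library (-2.02, while the sum of KRT81 and KRT86 was 2.73 in NOMO1 and 1.441 in OCI-AML3). In the combination KRT86 was above DMSO in NOMO1 and below it in OCI-AML3 both at day 3 (1.32 in NOMO1 and a fitted value of -6.92 in OCI-AML3, where the combination had 0 counts) and at day 6 (0.79 and a fitted -7.04, again with 0 counts). The NOMO1 value of day 3 was 0.43 against DMSO day 6, and the sum of KRT86 and its near-identical copy KRT81 was -0.51 against DMSO day 3 and 0.73 at day 6. KRT8 in the combination against VTP-50469 at day 6 was higher in every NOMO1 library (0.32) and lower in every OCI-AML3 library (-4.55, and -1.265 with its pseudogenes added). The difference between the lines was not tested for any of these.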

How the results depend on the processing

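Counts of members called stayed within 1.5 times for most settings, with these exceptions. With selumetinib in OCI-AML3 the 3 calls became 1 under DESeq2. Library totals left 2 of 4 calls between the NOMO1 DMSO groups, and moved the median log2 change of all genes to 0.33 to 0.39 in the comparisons with NOMO1 DMSO day 3 and to -0.25 (day 6) and -0.55 (day 3) between the untreated lines. Against that shift KRT18 and KRT10 with VTP-50469 at day 3 in NOMO1, neither of them called, were 0.02 and 0.11. With selumetinib they were -0.39 and -0.273, and in the combination at day 3 they were -0.878 and -0.615. KRT8 was 0.843 with VTP-50469 at day 3, 1.701 with selumetinib and 0.985 in the combination at day 3. A filter of 1 CPM in 3 libraries, which tests fewer members, left 1 call in OCI-AML3 for VTP-50469 at day 6, selumetinib, the combination at day 3 and at day 6 and the combination against VTP-50469 at day 3, and 2 calls against VTP-50469 at day 6. With only the groups compared in the fit, the OCI-AML3 combination against VTP-50469 had 1 call at day 3 and 2 at day 6, and the NOMO1 combination at day 6 had 5. Against DMSO day 6, the NOMO1 combination at day 3 had 2 calls, and KRT10 with selumetinib in NOMO1 changed sign (0.006). The cause was not tested.

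Leaving out 1 library at a time gave 1 to 3 calls for selumetinib and for the combination against VTP-50469 at day 3 in OCI-AML3, 4 to 6 for VTP-50469 at day 6, for the combination against it at day 6 and for the untreated difference at day 6, 4 to 6 for VTP-50469 at day 3 and the combination against it in NOMO1, 2 to 3 for the NOMO1 DMSO days and, in NOMO1, 2 to 3 for the combination at day 6. KRT17 was called in the untreated difference with no filter (4.57).

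Libraries with the same replicate number were not paired: correlations of their deviations lay between -0.076 and 0.049 (NOMO1) or -0.089 and 0.041 (OCI-AML3), and 4 of 21 and 6 of 21 libraries were closest to their own number. With the replicate block, calls were 3 for VTP-50469 at day 6 and 2 for selumetinib in OCI-AML3 and 3 between the NOMO1 DMSO days, and as reported in the other comparisons. Depth limits the OCI-AML3 members, most of which rest on under 100 counts per library.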
